A study of Mus musculus with 1507 samples.

Results

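Cellular iron handling was followed in 8 genes, chosen by gene symbol from the gene models: the uptake genes *Tfrc*, *Trf* and *Slc11a2*, the storage genes *Fth1* and *Ftl1*, the exporter gene *Slc40a1* and the regulator genes *Ireb2* and *Aco1*. They were 8 of the 47643 genes with a row in the single-cell table, and they were chosen with earlier results of these data known. In GRCm38 (mm10), the build of the files, *Tfrc* (ENSMUSG00000022797.15) lies at chr16:32608920-32632794, *Trf* (ENSMUSG00000032554.15) at chr9:103204001-103230444 and *Slc11a2* (ENSMUSG00000023030.16) at chr15:100387898-100425072. *Fth1* (ENSMUSG00000024661.6) lies at chr19:9982703-9985092, *Ftl1* (ENSMUSG00000050708.15) at chr7:45457945-45459886 and *Slc40a1* (ENSMUSG00000025993.10) at chr1:45908068-45926523. *Ireb2* (ENSMUSG00000032293.7) lies at chr9:54863755-54912534 and *Aco1* (ENSMUSG00000028405.9) at chr4:40143081-40198338.

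Most cells take up iron bound to transferrin, the plasma carrier encoded by *Trf*, through the transferrin receptor encoded by *Tfrc*, and the transporter encoded by *Slc11a2* (DMT1) moves the iron out of the endosome. Iron that is not used is stored in a shell of ferritin heavy and light chains (*Fth1* and *Ftl1*), and ferroportin (*Slc40a1*) is the exporter of animal cells. The iron regulatory proteins, encoded by *Aco1* and *Ireb2*, bind a hairpin called the iron-responsive element in iron-poor cells, which blocks translation when the hairpin lies in a 5′ UTR and protects *Tfrc* mRNA from decay when it lies in the 3′ UTR, so an mRNA level alone does not give the protein level.

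The matches to the element found in the members are shown because this hairpin is what the iron regulatory proteins bind. Transcripts of GENCODE vM21 (GRCm38) were searched on their own strand for a C, 5 further bases and CAGTGN, followed by a 3′ arm whose 5 bases pair with the 5 bases before the loop, G with U included. The capitals mark the loop, CAGTGN, and each stretch includes the stem on both sides, 5′ to 3′. *Fth1*, *Ftl1* and *Slc40a1* had 1 match each, in the 5′ UTR.
Fth1: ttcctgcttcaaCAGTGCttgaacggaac
Ftl1: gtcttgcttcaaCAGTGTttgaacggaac
Slc40a1: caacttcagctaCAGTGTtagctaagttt
The matches lie at chr19:9982732-9982760 on the + strand in Fth1-201, at chr7:45459779-45459807 on the − strand in Ftl1-201 and at chr1:45925465-45925493 on the − strand in Slc40a1-001. *Tfrc* had 4 matches in the 3′ UTR of Tfrc-001, on the + strand at chr16:32631219-32631247, chr16:32631598-32631626, chr16:32631663-32631691 and chr16:32631710-32631738, given below in that order.
Tfrc site 1: aattatcggaagCAGTGCcttccataatt
Tfrc site 2: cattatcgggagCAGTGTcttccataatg
Tfrc site 3: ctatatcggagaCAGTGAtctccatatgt
Tfrc site 4: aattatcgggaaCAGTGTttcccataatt
With 1 unpaired base allowed in the 3′ arm, *Slc11a2* had 1 match, in the 3′ UTR of Slc11a2-002 at chr15:100395153-100395181 on the − strand.
Slc11a2: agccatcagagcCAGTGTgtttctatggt
Slc11a2-001, which ends in another 3′ UTR, had no match, nor had the transcripts of *Trf*, *Ireb2* and *Aco1*. Of 58797 protein-coding transcripts, 565 (0.961%) held a match with all 5 pairs, 1709 (2.91%) one with an unpaired base and 2008 (3.42%) either. A match describes these letters and is not evidence that a protein binds there.

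RamDA-seq is a single-cell method that primes cDNA along whole RNAs, with or without a poly(A) tail. All samples came from 5G6GR mouse ES cells, an EB5 derivative with a randomly integrated *Gata6*-GR-IRES-Puro vector, in which dexamethasone activates the GATA6 fusion protein and drives the cells into primitive endoderm (PrE). ES cells were grown without feeders in serum with leukemia inhibitory factor, puromycin and blasticidin, and PrE cells in differentiation medium with dexamethasone in place of blasticidin. Single cells were sorted at 0 h (n = 92), 12 h (n = 91), 24 h (n = 93), 48 h (n = 87) and 72 h (n = 93) of dexamethasone, in ES cells by phase (93 in G1, 91 in S and 93 in G2/M), on the C1 system (16 ES and 39 PrE cells), and on 4 plates, E1, E2, B1 and B2, that each held ES and PrE cells (189 ES and 195 PrE wells in all). RNA of ES cells was also used for libraries by RamDA-seq (10 pg and 1 ng), by its version on the C1 system (10 pg), by SMART-Seq v4 (10 pg), by RNA-seq after rRNA depletion (rdRNA-seq, 1 ng, 10 ng and 1 µg) and by RNA-seq of polyadenylated RNA (paRNA-seq, 1 µg). All cells carry the fusion gene, and untreated cells of the parent line and iron-treated or iron-starved cells were not analysed here.

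Single-cell values are TPM, a transcript's share per length of 1 column's signal, summed per gene, so depth is not given by them. Summed estimated counts were 5706348 to 8962910 per library in the table with 10 pg and 1 µg, and 645120 to 956848 per well on the full plates and chips. On the 4 plates, 22 of 384 wells had at most 206 detected transcripts (TPM of at least 0.1), against at least 10616 in every other well, and 13 of the 22 were ES wells on B1 and B2. Plate results are therefore given with and without them. Of the 7 ES markers fixed for this work, 7 had a mean of at least 1 TPM at 0 h and 4 at 72 h. Of the 9 PrE markers, 4 did at 0 h and 9 at 72 h. The sum of the ES markers was 621 to 1522 TPM per cell at 0 h and 20.6 to 281 TPM at 72 h. The sum of the PrE markers was 17.8 to 215 TPM per cell at 0 h and 955 to 5620 TPM at 72 h. Cells were also split by the summed TPM of 5 of the ES markers (*Sox2*, *Nanog*, *Zfp42*, *Esrrb* and *Tdgf1*) and of 5 of the PrE markers (*Gata4*, *Sox17*, *Sox7*, *Dab2* and *Pdgfra*). By these genes, more ES than PrE marker signal was present in 92 of 92 cells at 0 h, 23 of 91 at 12 h, 3 of 93 at 24 h, 2 of 87 at 48 h and 0 of 93 at 72 h. The counts depend on this choice of genes, and a split by the full lists is not given. Over the full lists the median sums at 12 h were 282 TPM for ES and 655 TPM for PrE markers. The sum over 5 parietal endoderm markers also went from 134 to 1034 TPM at 0 h to 647 to 5265 TPM at 72 h, and its part in the results was not tested. Trophoblast (4 genes), mesoderm (3 genes) and fibroblast markers (4 genes) summed to at most 40.4 TPM in any cell of 0 h or 72 h. The sum over 7 visceral endoderm markers had means of 20.2 TPM at 0 h, 249 TPM at 48 h and 117 TPM at 72 h and reached 777 TPM in a cell of 48 h, and its part in the results was not tested either.

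The plot of single cells by time sets the members side by side. The receptor mRNA *Tfrc* was lower from 12 h on, the transporter mRNA *Slc11a2* and the regulator mRNA *Aco1* were higher at the end than at the start, and the ferritin heavy chain mRNA *Fth1* peaked at 24 h. The labels name no separate cultures within a time, so the values below describe these cells and no test was run between times.

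**Figure D1:**
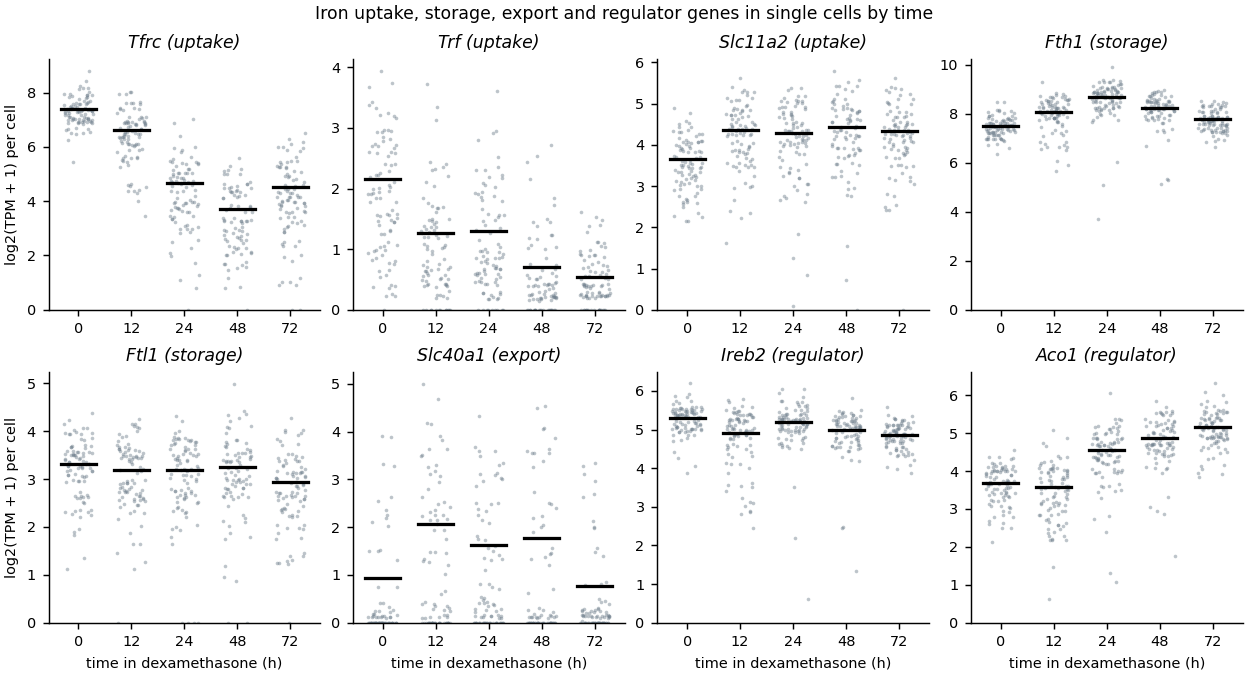
Single cells (points, n = 92, 91, 93, 87 and 93) at 5 times of dexamethasone for the 8 members, as log2(TPM + 1) per cell, with the log2 of the mean TPM + 1 as a bar. *Tfrc* falls from a mean of 167 TPM at 0 h to 12.2 TPM at 48 h, *Fth1* is highest at 24 h (411 TPM), and *Aco1* reaches 34.7 TPM at 72 h.

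*Tfrc*, the receptor, had 42.8, 158 and 444 TPM per cell at 0 h (lowest, median and highest), 10.1, 87.8 and 261 TPM at 12 h, and 0, 19.8 and 131 TPM at 24 h. At 48 h these were 0, 8.72 and 47.4 TPM and at 72 h 0, 16.7 and 90.2 TPM. The median cell thus dropped until 48 h and was higher again at 72 h, and the cells of 0 h and 72 h overlapped only between 42.8 and 90.2 TPM. Mean levels were 167 ± 61.6 TPM at 0 h and 22.1 ± 19.3 TPM at 72 h (mean ± SD over cells), 7.26-fold lower at 72 h on the TPM + 1 scale used for all folds here, which understates the change of low genes. The largest step was from 12 h to 24 h, by 3.91-fold. At 12 h the 23 cells with more ES than PrE marker signal had a mean of 140.8 TPM and the other 68 a mean of 83.6 TPM. The other cells were also lower in *Ireb2* (27.1 against 35.8 TPM) and *Aco1* (10.1 against 13.3 TPM). *Slc11a2* and *Fth1* were slightly lower there, and *Trf*, *Ftl1* and *Slc40a1* higher. Whether cells of few transcripts bear on this contrast was not tested. At 24 h the mean of *Tfrc* was 23.2 TPM without the 3 cells with more ES marker signal. The drop was also seen in the table on the authors' merged gene models, at 139.7 TPM at 0 h and 18.8 TPM at 72 h. That table leaves out cells they called outliers and holds 90, 68, 90, 82 and 91 cells at 0 h, 12 h, 24 h, 48 h and 72 h.

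*Trf*, the carrier, was low throughout, at 3.47 ± 3.03 TPM at 0 h, 1.41 ± 1.93 TPM at 12 h, 1.46 ± 1.8 TPM at 24 h, 0.623 ± 1.04 TPM at 48 h and 0.452 ± 0.467 TPM at 72 h. A level of at least 1 TPM was seen in 70 of 92 cells at 0 h (76.1%, exact 95% interval 66.1 to 84.4%) and in 11 of 93 cells at 72 h (11.8%, interval 6.06 to 20.2%), intervals that cover counting of cells only. *Slc11a2*, the endosomal transporter, took another course. Its lowest, median and highest cells were 3.43, 10.6 and 28.6 TPM at 0 h, 2.05, 18.9 and 47.8 TPM at 12 h and 0, 18.2 and 47.8 TPM at 72 h. The rise in its mean, from 11.6 ± 5.40 to 19.6 ± 9.56 TPM, was complete at 12 h, and the means at 24 h, 48 h and 72 h stayed between 18.6 and 20.6 TPM, apart by less than the SD over cells.

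*Fth1*, the iron-oxidizing heavy chain of ferritin, was the most abundant member by symbol. Its lowest, median and highest cells were 79.8, 175 and 359 TPM at 0 h, 49.5, 265 and 632 TPM at 12 h and 11.8, 408 and 961 TPM at 24 h. At 48 h they were 34.3, 300.7 and 499 TPM and at 72 h 99.8, 207 and 368 TPM, so the ranges of all times overlapped while the median rose to 24 h and then came down. The mean at 24 h, 411 ± 143 TPM, was 2.26-fold that at 0 h (181 ± 51.4 TPM), and the mean at 72 h, 218 ± 64 TPM, was 1.20-fold that at 0 h. Without the 3 cells of 24 h with more ES than PrE marker signal the mean there was 420 TPM.

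*Ftl1*, the light chain that helps form the iron core, had only 8.97 ± 3.85 TPM at 0 h and 6.62 ± 3.68 TPM at 72 h under its own symbol. Transcripts of GENCODE vM21 were therefore aligned to it, and 7 annotated genes matched over at least 300 bases at 90% identity or more. *Gm10116* (chr13:74406396-74407317, named *Ftl1-ps1* in vM21) was 99.6% identical over 910 bases, *Ftl2-ps* (chr4:125504288-125504839) 98.7% over 552 bases and *Gm20746* (chr10:130592154-130592705) 97.8% over 549 bases. At 0 h *Gm10116* held 750.3 ± 166 TPM, *Ftl2-ps* 1004 ± 236 TPM and *Gm20746* 142 ± 37.7 TPM, far above *Ftl1* itself. Reads from near-identical copies cannot be told apart with certainty, so neither the low value of *Ftl1* nor the high values of the copies can be read as the level of 1 gene. With all 7 copies added, the light chain signal was 777, 1887 and 3218 TPM at 0 h (lowest, median and highest cell) and 678, 1168 and 2190 TPM at 72 h. Its mean went from 1909 ± 434 TPM at 0 h to 1488 ± 494, 1593 ± 447, 1371 ± 406 and 1228 ± 281 TPM at 12 h, 24 h, 48 h and 72 h, so it did not share the peak of *Fth1* at 24 h. *Fth1* had 1 such copy, *Gm6977*, which added less than 1 TPM at any time.

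*Slc40a1*, the exporter, was near the lower end of what these cells show, with a median of 0 TPM at 0 h and at most 0.306 TPM at 12 h to 72 h. The share of cells with at least 1 TPM was 16.3% at 0 h (15 of 92), 45.1% at 12 h (41 of 91), 35.5% at 24 h (33 of 93), 31% at 48 h (27 of 87) and 12.9% at 72 h (12 of 93). Single cells reached 30.9 TPM at 12 h, and the means, 0.921 TPM at 0 h, 3.18 TPM at 12 h and 0.705 TPM at 72 h, were each smaller than their SD.

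The regulators parted ways. *Aco1* encodes the cytosolic aconitase that becomes iron regulatory protein 1 when it loses its iron-sulfur cluster. Its lowest, median and highest cells were 3.40, 11.9 and 22.3 TPM at 0 h, 0.534, 10.2 and 33.2 TPM at 12 h and 1.11, 22 and 65.4 TPM at 24 h. They were 2.36, 26 and 56.9 TPM at 48 h and 13.3, 33.2 and 79.2 TPM at 72 h, so the median cell rose from 12 h on while the ranges overlapped. Its mean rose from 12.0 ± 3.98 to 34.7 ± 11.7 TPM between 0 h and 72 h, by 2.76-fold. *Ireb2*, which encodes iron regulatory protein 2, went from 38.4 ± 9.27 TPM at 0 h to 28 ± 6.29 TPM at 72 h, with means of 29.3, 35.6 and 30.5 TPM in between. Mean *Aco1* was thus below mean *Ireb2* at 0 h, 12 h, 24 h and 48 h and above it at 72 h, on the TPM scale that is per length.

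Between 0 h and 72 h, 3 of the 8 members had means at least 2-fold apart, *Tfrc* and *Trf* lower and *Aco1* higher. This stands beside 26.1% of the 15961 genes whose 0 h and 72 h means averaged at least 1 TPM (13.6% higher and 12.5% lower). *Slc40a1*, with means under 1 TPM at both times, was not among those genes. Of single steps, 1 of the 8 members passed 2-fold from 0 h to 12 h (*Slc40a1*, beside 8.31% of genes), 1 from 12 h to 24 h (*Tfrc*, beside 6.56%) and 0 in the later steps (6.88% and 3.57% of genes). Of the cells, 3, 8, 4, 8 and 3 at 0 h, 12 h, 24 h, 48 h and 72 h had few detected transcripts for their time (more than 1.5 interquartile ranges under the first quartile). Without them the means at 24 h were 25.01 TPM for *Tfrc*, 420.9 TPM for *Fth1* and 23.1 TPM for *Aco1*, close to those of all cells. They did bear on the relation between cells of *Fth1* and *Ireb2*, whose Pearson's r of log2(TPM + 1) was 0.188 at 0 h, 0.791 at 12 h, 0.765 at 24 h, 0.726 at 48 h and −0.0844 at 72 h. Without these cells r was 0.14, 0.70, 0.115, 0.178 and −0.087, so the values at 24 h and 48 h rested on 4 and 8 cells. At 12 h the r of 0.70 is over 83 cells, while the authors' table without their outliers holds 68. Whether further cells of poor quality bear on that value was not tested.

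The 4 plates give the comparison with replicates, since ES and PrE cells were sorted side by side on each plate. By the paper, their libraries were made with a modified RamDA-seq protocol. It used a protein reagent from another supplier, a shorter incubation and changed second-strand synthesis and PCR. Levels on the plates and in the time course thus also differ by protocol. PrE cells had less *Tfrc* and *Trf*, more *Slc11a2* and *Aco1*, and a small excess of *Fth1*. Nothing in the labels says that the plates came from separate cultures, so the p-values measure the spread between plates, and because TPM are shares, fewer transcripts per cell and a change in all other RNAs cannot be told apart. The test was limma on log2(mean TPM + 1) per plate and cell type (n = 4 each), adjusted over 16202 genes.

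**Figure D2:**
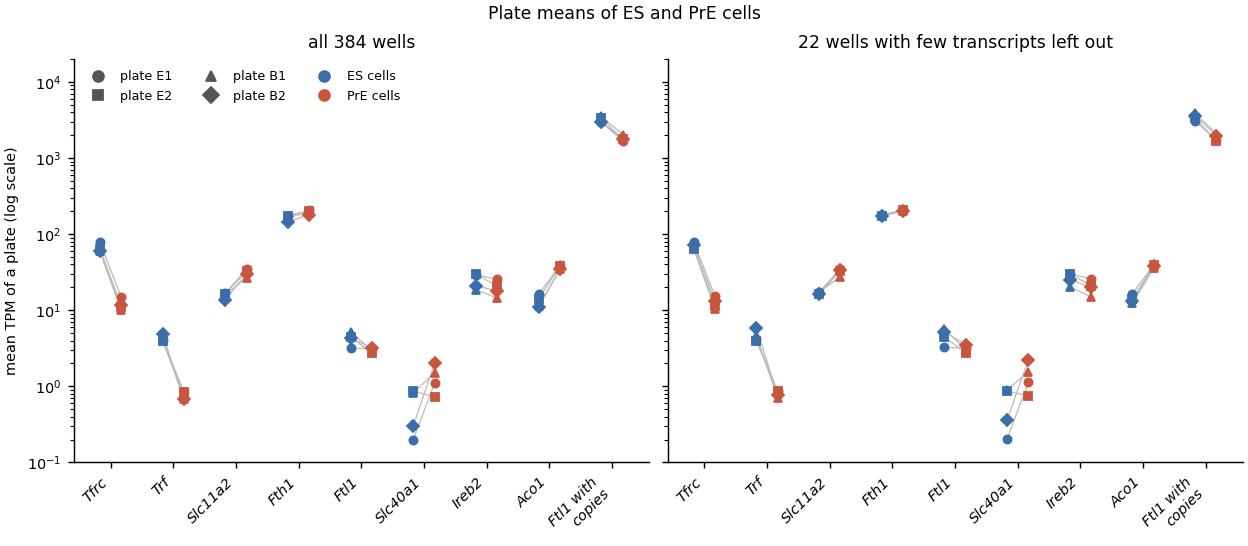
Mean TPM of ES (blue) and PrE cells (red) on each of 4 plates (marker shapes, joined by a line per plate) on a log axis, with all 384 wells on the left and without the 22 wells of few transcripts on the right. The ES and PrE plate means of *Tfrc*, *Trf*, *Slc11a2*, *Fth1* and *Aco1* do not overlap in either panel, those of *Ftl1*, *Slc40a1* and *Ireb2* do.

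*Tfrc* averaged 78.1, 64.8, 59.5 and 60.2 TPM in ES cells of plates E1, E2, B1 and B2 and 15, 11.1, 10.02 and 11.7 TPM in their PrE cells. Every PrE mean was below every ES mean, and the log2 difference, PrE minus ES, was −2.37 ± 0.14 (SE, adjusted p = 8.97e-07). *Trf* averaged 4.08, 3.94, 4.18 and 4.90 TPM in ES cells and 0.843, 0.846, 0.682 and 0.686 TPM in PrE cells, again without overlap (log2 difference −1.58 ± 0.09, adjusted p = 1.22e-06). *Slc11a2* went the other way, from 16.7, 16.3, 15.8 and 13.8 TPM in ES cells to 34.6, 32.7, 26.8 and 30.1 TPM in PrE cells (log2 difference 0.94 ± 0.10, adjusted p = 5.14e-05).

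Of the storage genes, *Fth1* averaged 174.4, 174.4, 164 and 144 TPM in ES cells and 206, 203, 197 and 181 TPM in PrE cells, without overlap. Its log2 difference was 0.26 ± 0.09 (adjusted p = 0.0326), a call that was lost when plate E1, E2 or B1 was left out (adjusted p = 0.0779 to 0.113) and when TPM were rescaled to nuclear protein-coding genes (log2 difference 0.13, adjusted p = 0.299). That rescaling moved the median log2 difference of all genes tested from 0.09 to −0.05. *Ftl1* under its own symbol averaged 3.17, 4.46, 5.21 and 4.36 TPM in ES cells and 3.14, 2.72, 2.97 and 3.17 TPM in PrE cells, and the lowest ES mean lay within the PrE range. Its log2 difference of −0.39 ± 0.13 passed the test (adjusted p = 0.0255) but not without E2, B1 or B2 (adjusted p = 0.0767 to 0.129). With its 7 copies added, the light chain signal was 2995, 3353, 3545 and 3017 TPM in ES cells and 1683, 1770, 2039 and 1769 TPM in PrE cells, a log2 difference of −0.83 ± 0.11 (adjusted p = 0.000161), so that the summed light chain signal fell while *Fth1* did not fall.

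**Figure D3:**
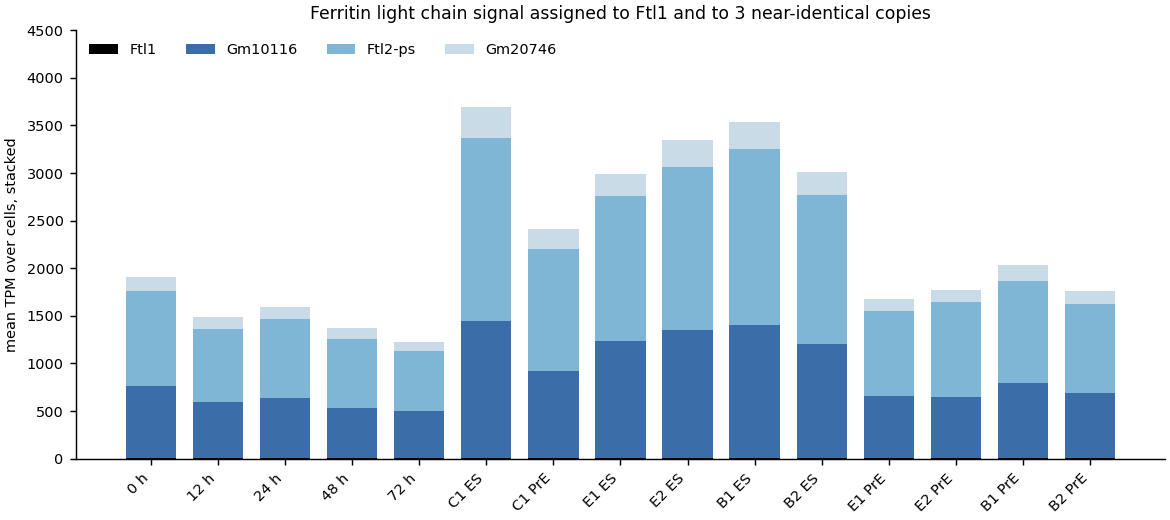
Stacked mean TPM over cells assigned to *Ftl1* (black) and to its copies *Gm10116*, *Ftl2-ps* and *Gm20746* (blues), for each time, the C1 cells and each plate. *Ftl1* itself is a sliver at the base of each bar (at most 8.97 TPM), and the bars of PrE cells are lower than those of ES cells on the C1 system and on each plate.

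*Slc40a1* averaged 0.200, 0.870, 0.813 and 0.304 TPM in ES cells and 1.11, 0.734, 1.52 and 2.01 TPM in PrE cells, with overlap. It was under the minimum mean of 1 TPM in the main fit and was tested only in alternative fits. Without the wells of few transcripts the log2 difference was 0.60 (adjusted p = 0.0385), and with the plate as a block there the adjusted p was 0.0603. It did not pass with no filter (0.60, adjusted p = 0.0770), with TPM rescaled to nuclear protein-coding genes (0.80, adjusted p = 0.0597) or without plate E1 (0.52, adjusted p = 0.126).

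*Aco1* averaged 16.2, 14.03, 11.3 and 11.04 TPM in ES cells and 38.9, 38.3, 34.9 and 34.4 TPM in PrE cells, so all PrE means were over 34 TPM and all ES means under 17 TPM. Its log2 difference was 1.43 ± 0.13 (adjusted p = 1.32e-05). *Ireb2* averaged 29.4, 30.1, 18.7 and 21.1 TPM in ES cells and 25.5, 20.7, 14.5 and 17.9 TPM in PrE cells. The PrE mean was the lower one on all 4 plates, but the plates differed by more than the cell types, and the log2 difference of −0.32 ± 0.20 did not pass the test (adjusted p = 0.205), whereas it did with the plate as a block (adjusted p = 0.0151).

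In all, 6 of the 7 members tested were called, 3 higher and 3 lower in PrE cells, beside 59.2% of all genes tested (34.7% higher and 24.4% lower), so a call on these plates is common. With the 22 wells left out, 7 of 8 members were called, 4 higher and 3 lower (65.1% of 16428 genes, 36.1% higher and 29% lower). Log2 differences there were −2.42 ± 0.12 for *Tfrc* (adjusted p = 1.08e-07), 0.90 ± 0.08 for *Slc11a2* (adjusted p = 7.86e-06), 0.22 ± 0.05 for *Fth1* (adjusted p = 0.00221) and 1.39 ± 0.09 for *Aco1* (adjusted p = 6.59e-07).

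Among cells captured on the C1 system the groups lay in the same order for most members, and the labels give no chips or cultures that could serve as replicates. *Tfrc* had 23.9, 115 and 271 TPM in ES cells (lowest, median and highest) and 0, 17.6 and 79.7 TPM in PrE cells, 6.15-fold lower by the means. *Aco1* had 9.98, 20.5 and 38.8 TPM in ES cells and 28.5, 48.0 and 121 TPM in PrE cells, 2.38-fold higher. The ranges of PrE cells reached into those of ES cells for both. *Fth1* had 84.7, 249 and 393 TPM in ES cells and 200.1, 387 and 689.8 TPM in PrE cells. ES and PrE means were 3.26 and 0.357 TPM for *Trf*, 18.1 and 29.4 TPM for *Slc11a2* and 43.3 and 33.5 TPM for *Ireb2*. The light chain signal with copies was 3708 ± 1191 TPM in ES cells and 2420 ± 727 TPM in PrE cells. *Slc40a1* had means of 1.99 TPM in ES and 1.01 TPM in PrE cells, the reverse of the order on the plates, and both were smaller than their SD. Means at least 2-fold apart were found for 3 of the 8 members, *Tfrc*, *Trf* and *Aco1*, beside 29.5% of 15992 genes.

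Of the 8 annotated transcripts of *Slc11a2*, Slc11a2-002 ends in a 3′ UTR with the element and Slc11a2-001 in a 3′ UTR without it. They hold only part of the gene's signal. At 0 h, means were 3.20 TPM for Slc11a2-002, 1.89 TPM for Slc11a2-001 and 11.6 TPM for the gene. Of the mean TPM of Slc11a2-001 and Slc11a2-002, Slc11a2-002 held 41.9, 33.9, 42.8 and 31% in ES cells of plates E1, E2, B1 and B2. In PrE cells it held 53.9, 53.9, 53.6 and 53.6%, higher on each plate. On the C1 system the order was the reverse, with 63.9% in ES and 55.7% in PrE cells. Over time the share was 62.8% at 0 h, 66.9% at 12 h, 63.5% at 24 h, 61.7% at 48 h and 56.1% at 72 h, so it was higher at 12 h than at 0 h and lowest at 72 h. In ES cells sorted by phase it was 54.4% in G1, 50.7% in S and 46.8% in G2/M, so ES cells alone spanned a wide range between runs. The levels behind these shares were 1.76 to 7.87 TPM per group, and no test was run on them. Protocols also differed between the plates, the C1 system and the time course. For *Tfrc*, Tfrc-001 with its 4 matches held 64.4% of the gene's TPM at 0 h and 70.2% at 72 h, but 70.1% in ES and 64.8% in PrE cells of the C1 system, and 44.2 to 46.2% in ES cells sorted by phase. On plates E1, E2, B1 and B2 it held 49.1, 48.5, 48 and 48.8% in ES cells. In PrE cells of these plates it held 58.8, 58.2, 62.25 and 50.2%, higher on each plate, and no test was run on these shares either.

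**Figure D4:**
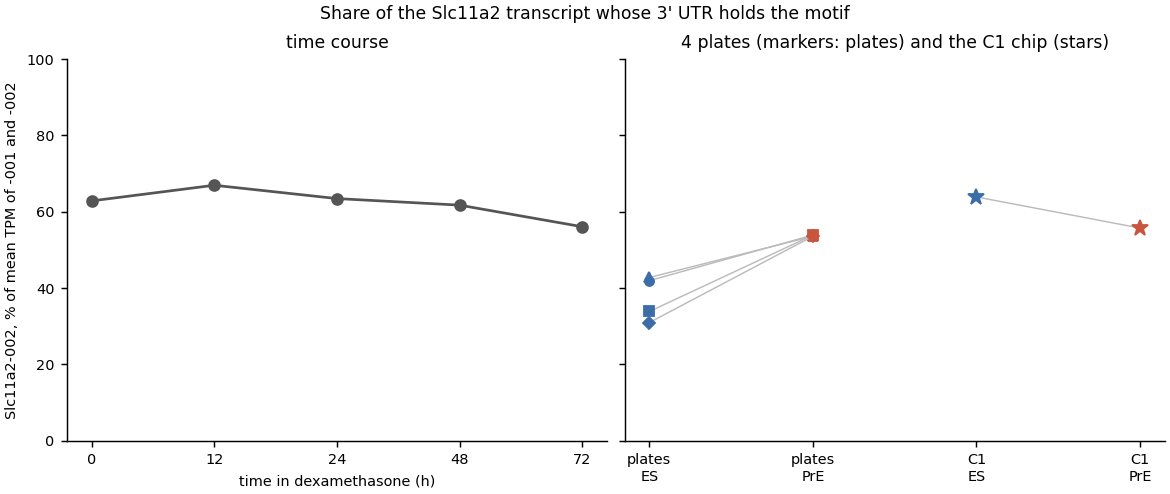
Slc11a2-002 as a percentage of the mean TPM of Slc11a2-001 and Slc11a2-002, over time (left) and in ES (blue) and PrE (red) cells of 4 plates and of the C1 system (right). PrE cells lie higher than ES cells on all 4 plates and lower on the C1 system.

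Between phases of the ES cell cycle, 0 of the 8 members had means 2-fold apart in any pair, beside 2.14% of 16581 genes. The labels name no separate cultures or sorts within a phase, so no test was run. Means in G1, S and G2/M were 205, 250.3 and 200.4 TPM for *Fth1*, 46, 59.5 and 52 TPM for *Ireb2*, and 106, 108 and 115 TPM for *Tfrc*. *Ftl1* with copies was 2022, 2541 and 2054 TPM, and *Aco1* was 15, 12.4 and 15 TPM. S cells had the highest mean of *Fth1*, *Ireb2* and the light chain signal and the lowest of *Aco1*, by less than 1 SD over cells in each case.

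Wells that each received a part of 1 pooled lysate of sorted G1 cells give the technical spread. The SD of log2(TPM + 1) over 93 G1 cells and over 9 lysate wells was 0.63 and 0.26 for *Tfrc*, 0.55 and 0.18 for *Fth1*, 0.59 and 0.37 for *Ireb2* and 0.79 and 0.56 for *Slc11a2*. *Aco1* (0.57 and 0.55) and *Slc40a1* (1.08 and 1.06) varied almost as much between wells as between cells, and *Trf* (1.03 and 1.19) varied more between wells. Cells had the larger SD for 7 of the 8 members, beside 71.2% of 16424 genes.

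Libraries from ES cell RNA show how the method bears on these values. At 10 pg, RamDA-seq (n = 3) gave more *Tfrc* and *Ireb2* and less ferritin signal than SMART-Seq v4 (n = 4), which primes at the poly(A) tail. Libraries share a source of RNA, so p-values from edgeR's quasi-likelihood test measure technical spread.

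*Tfrc* was at 415, 373 and 516 CPM (a library's estimated counts scaled to a common total) in RamDA-seq and at 276, 312, 236 and 139.7 CPM in SMART-Seq v4, without overlap. The fitted log2 difference, RamDA-seq minus SMART-Seq v4, was 1.52 ± 0.27 (adjusted p = 0.0125), and 0.85 (adjusted p = 0.0665) with no scaling beyond library size. *Ireb2*, the longest member transcript, was at 322, 285 and 301 CPM against 81.9, 187, 268 and 121 CPM (log2 difference 1.55 ± 0.37, adjusted p = 0.0319), a call lost without any 1 of 5 of the 7 libraries (RamDA-seq 1, 2 or 3, SMART-Seq v4 2 or 4, adjusted p = 0.0508 to 0.106) and without scaling (0.89, adjusted p = 0.154). The call of *Tfrc* was lost without RamDA-seq 1 (adjusted p = 0.0574) or 3 (adjusted p = 0.0603). *Fth1* was at 168, 144 and 159.8 CPM against 802, 786, 1094 and 730.2 CPM, 3.42-fold lower in RamDA-seq (log2 difference −1.77 ± 0.17, adjusted p = 0.000811).

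*Ftl1* was at 11.9, 10.4 and 11.7 CPM against 222, 201, 170.01 and 184 CPM, which made it 10.8-fold lower in RamDA-seq by the fit (log2 difference −3.43 ± 0.26, adjusted p = 0.000305). With its copies the signal was 1358, 1249 and 1296 CPM against 7629, 7311, 6557 and 7966 CPM (log2 difference −1.84 ± 0.08, adjusted p = 1.74e-05), so the share of the light chain signal that went to *Ftl1* itself differed between the methods. The full plates and chips had *Ftl1* at 3.74 ± 4.33 CPM in RamDA-seq wells (n = 96), 3.77 ± 4.32 CPM in wells of RamDA-seq on C1 (n = 95) and 299 ± 32.3 CPM in wells of SMART-Seq v4 on C1 (n = 94). *Fth1* was at 114, 173 and 545 CPM there, in the same order, and no test was run between these runs.

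The other members did not pass at 10 pg. *Aco1* was at 27, 52.4 and 53.7 CPM in RamDA-seq and at 84.1, 0, 95.6 and 145 CPM in SMART-Seq v4. *Slc11a2* was at 13, 55.5 and 33.7 CPM and at 24.7, 24.7, 0 and 0.342 CPM. *Trf* was at 1.49, 11.3 and 8.79 CPM and at 0.575, 0.462, 27.7 and 28.7 CPM. Values of the methods overlapped in each case (adjusted p = 0.970, 0.575 and 0.954). *Slc40a1*, at 0 CPM in all 4 SMART-Seq v4 libraries and at 0 to 2.80 CPM in RamDA-seq, fell under edgeR's count filter. Of the 7 members tested 4 were called, 2 in each direction, beside 14.1% of 12566 genes (7.43% higher and 6.62% lower). Over all genes 934 were higher and 832 lower, and 735 and 1793 with no scaling beyond library size.

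At 1 µg, ferritin heavy chain mRNA was lower in rdRNA-seq (n = 3) than in paRNA-seq (n = 3), while the fitted levels of *Tfrc* and *Ireb2* differed by less than their error. *Fth1* was at 156, 145.5 and 160.2 CPM in rdRNA-seq and at 261, 261 and 260.4 CPM in paRNA-seq (log2 difference −0.45 ± 0.03, adjusted p = 8.00e-07). *Slc11a2* was at 17.1, 17.2 and 20.6 CPM against 29.2, 30.8 and 34.8 CPM (−0.47 ± 0.09, adjusted p = 0.00139) and *Aco1* at 40.8, 46.8 and 46.9 CPM against 67.6, 63.8 and 63.9 CPM (−0.22 ± 0.06, adjusted p = 0.00997). For *Tfrc* the fitted difference was −0.02 ± 0.03 (adjusted p = 0.686), for *Ireb2* 0.00337 ± 0.03 (adjusted p = 0.950) and for *Trf* 0.39 ± 0.27 (adjusted p = 0.258), while *Ftl1*, at 0 to 1.86 CPM, and *Slc40a1*, at 0.335 to 1.35 CPM, fell under the filter. The 3 members called of 6 tested were all lower in rdRNA-seq, beside 49.9% of 14347 genes (23.8% higher and 26% lower). The directions rest on the scaling, since 3420 genes were higher and 3737 lower with it, and 1399 and 7657 without it, where *Tfrc* (−0.33, adjusted p = 1.13e-05) and *Ireb2* (−0.31, adjusted p = 4.07e-05) were called lower as well. In rdRNA-seq at 1 ng and 10 ng, *Fth1* was at 126 ± 10.0 and 146 ± 4.80 CPM, and in RamDA-seq at 1 ng at 113 ± 2.35 CPM (n = 3 each). By the paper, rdRNA-seq at 1 ng and 10 ng used another kit than at 1 µg, and single in place of paired reads. Input and kit cannot be told apart there.

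**Figure D5:**
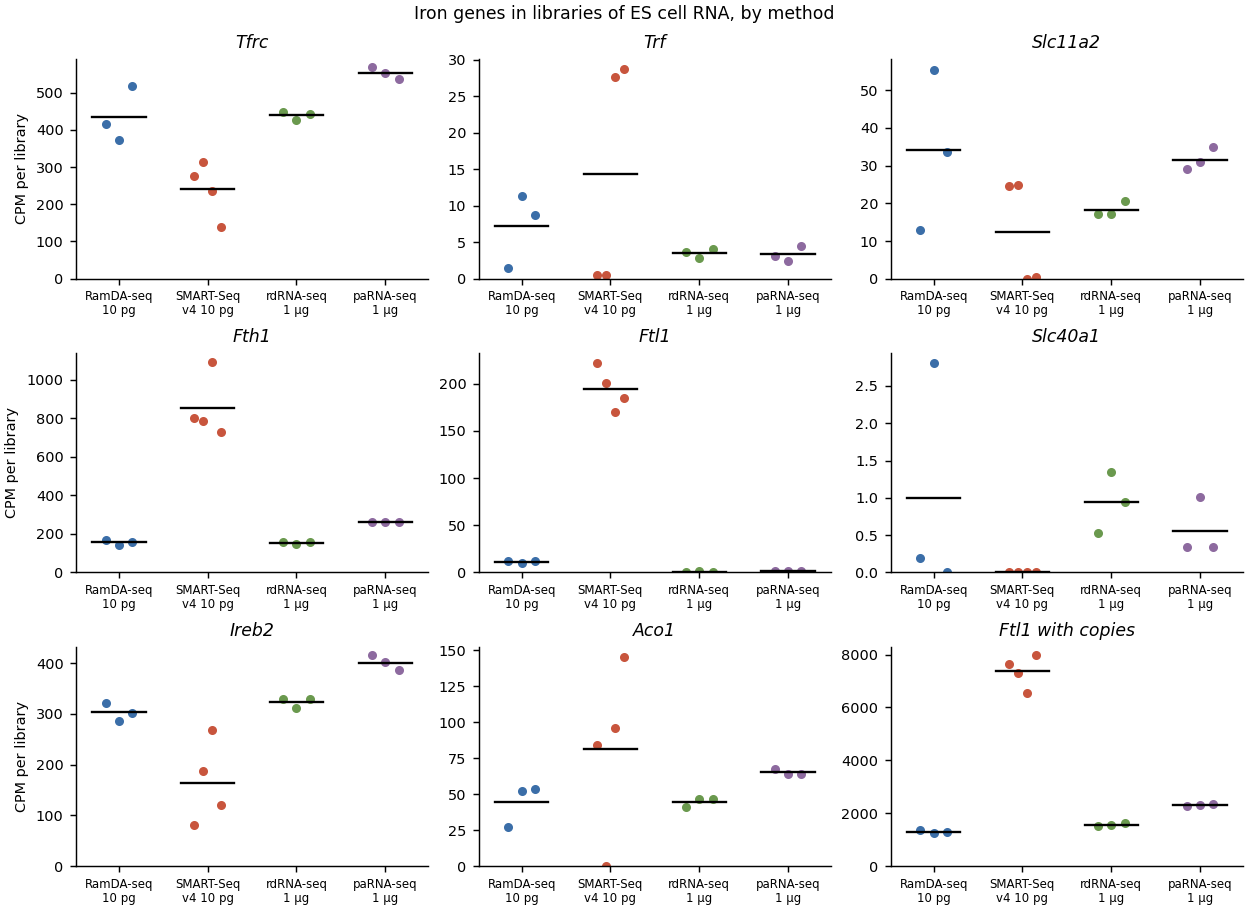
CPM of each library (points) and the mean (bar) for the 8 members and for *Ftl1* with its copies, with ES cell RNA of 10 pg (RamDA-seq, SMART-Seq v4) or 1 µg (rdRNA-seq, paRNA-seq). SMART-Seq v4 is highest for *Fth1*, *Ftl1* and *Ftl1* with copies, and its libraries scatter widely for *Trf*, *Ireb2* and *Aco1*.

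Of all 6999 genes with a mean of at least 10 TPM over the 456 cells of the time course, the most like *Tfrc* by Pearson's r of log2(TPM + 1) were *Sept1* (0.802), *Tdgf1* (0.800) and *Fn1* (0.788). *Tdgf1* is one of the 7 ES markers. *Aco1* was most like *Dnajc10* (0.768), *Tm9sf3* (0.765) and *Rab2a* (0.757), *Fth1* like *Mapk1ip1l* (0.751), *Vcp* (0.751) and *Ywhab* (0.731), and *Ireb2* like *Pabpc1* (0.764), *Csnk1a1* (0.763) and *Ppp1cb* (0.761). *Slc11a2* was most like *Gps1* (0.587), *Cnbp* (0.585) and *Yrdc* (0.584), and *Trf* like *Igfbp2* (0.549), *Adam23* (0.523) and *Trh* (0.515). The genes most like *Ftl1* were its own copies *Ftl2-ps* (0.586), *Gm10116* (0.566) and *Gm20746* (0.563), and for *Slc40a1* no gene passed 0.327 (*Dnmt3b*). Many of these cells share a time, cells of few transcripts are among them, and no p is given.

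Of 37 other iron genes listed for this work, 22 could be tested on the plates, of which 11 were higher, 4 lower and 7 not called in PrE cells (median log2 difference 0.19, against 0.09 over all genes tested). These counts stand beside 34.7% higher and 24.4% lower over all genes tested, and whether the list differs from all genes was not tested. Among 10 uptake genes, 4 were tested. *Slc39a8* (ZIP8, a metal importer) averaged 0.116 to 0.180 TPM on ES plates and 19.8 to 25.8 TPM on PrE plates (log2 difference 4.36 ± 0.09, adjusted p = 4.98e-09), and over time its mean went from 0.178 TPM at 0 h to 19.2 TPM at 72 h. *Steap2*, a ferrireductase, averaged 6.19 to 8.83 TPM and 0.634 to 1.15 TPM (−2.14 ± 0.13, adjusted p = 1.22e-06). *Tfr2*, the second transferrin receptor, was 0.51 ± 0.11 higher (adjusted p = 0.00399), and *Slc39a14* was not called (−0.07, adjusted p = 0.610).

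None of the 3 other export genes (*Heph*, *Cp* and *Hephl1*) reached 1 TPM. Of 5 systemic regulators only *Bmp6*, the ligand that induces hepcidin in the liver, was tested, and it averaged 0.118 to 0.258 TPM in ES and 5.01 to 5.94 TPM in PrE cells (log2 difference 2.42 ± 0.09, adjusted p = 8.16e-08). Of the chaperones and ferritin turnover genes, *Ncoa4*, the receptor for ferritin autophagy, was higher (0.83 ± 0.09, adjusted p = 4.45e-05), and *Fbxl5*, the iron sensor that marks iron regulatory protein 2 for decay, and the iron chaperone *Pcbp2* were lower (−0.63 ± 0.10, adjusted p = 0.000498, and −0.57 ± 0.12, adjusted p = 0.00347). *Pcbp1* was not called (adjusted p = 0.269).

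Of 12 genes of mitochondrial iron, heme and iron-sulfur clusters, 11 were tested, 6 higher, 1 lower and 4 not called, beside the 59.2% of all genes that were called. *Fech*, which inserts iron into heme, was 1.38 ± 0.10 higher (adjusted p = 3.02e-06), and the heme oxygenases *Hmox1* and *Hmox2* were 0.63 ± 0.08 and 0.78 ± 0.13 higher (adjusted p = 0.000204 and 0.000777). The cysteine desulfurase *Nfs1* was lower (−0.39 ± 0.11, adjusted p = 0.0131). *Epas1* (HIF-2α), whose mRNA is known to carry an iron-responsive element, averaged 7.88 to 8.88 TPM in ES and 125 to 153 TPM in PrE cells (log2 difference 3.96 ± 0.09, adjusted p = 5.28e-09). In the time course mean *Epas1* was 15.1 TPM at 0 h, 3.54 TPM at 12 h, 2.45 TPM at 24 h and 150.4 TPM at 72 h, so it was lower before it was higher.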

How the data were processed

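The authors quantified trimmed reads with Sailfish, without strand, on GENCODE vM9 transcripts (mm10), and deposited estimated counts per transcript for libraries from RNA, after the same number of reads was drawn per library for the table of 10 pg and 1 µg, and TPM per transcript, scaled by transcript length, for single cells. A second deposited TPM table used models merged with transcripts newly assembled from mapped reads (HISAT2 2.0.1 and Cufflinks 2.2.1 in the submitters' processing notes). Columns of TPM carry no depth, and counts of low genes rest on few reads.

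Here values were summed per gene, and estimated counts were rounded. Plate means as log2(TPM + 1) of genes with a mean of at least 1 TPM were compared with limma 3.58.1, and libraries with edgeR 4.0.16 (TMM, filterByExpr, quasi-likelihood test), both in R 4.3.3, two-sided and Benjamini-Hochberg adjusted at 0.05 over all genes tested. DESeq2 1.42.0 was an alternative. Other steps used Python 3.11.15, pandas 2.3.3, numpy 2.4.6, scipy 1.17.1, matplotlib 3.10.9 and blastn 2.17.0. Cells of a time, phase or chip were not treated as replicates. Exact binomial 95% intervals cover counting of cells only.

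The 8 members, the 37 other iron genes, the markers and the tests were chosen with earlier results of these data known. Named genes were the members, the listed iron genes, the 3 genes most like each member and copies of ferritin genes. A member counted as called at an adjusted p under 0.05, or at a fold of 2 without a test.

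Each plate held both cell types, so the plate pairs them. Deviations of plate means from the mean of their cell type correlated at 0.083, 0.058, 0.066 and 0.032 within E1, E2, B1 and B2, and at 0.143, 0.106, 0.127 and 0.0761 without the wells of few transcripts, and a fit with the plate as a block was an alternative. Other alternatives were a pseudocount of 0.1, no filter, medians over cells, TPM rescaled to nuclear protein-coding genes, no scaling, left-out libraries, plates and cells of few transcripts, and the merged models. Leaving out plate wells of under 1000 transcripts, correlations without cells of few transcripts and adding ferritin copies found by sequence were chosen after seeing the data. Of 38 member transcripts, 38 were in vM21 and 35 had the same length there.

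On simulated data limma recovered 17, 37 and 47 of 50 genes raised by 0.5, 1 and 2 on the log2 scale (16202 genes), edgeR at 10 pg 6, 34 and 46 of 50 raised by 1, 2 and 3 and 31 of 50 lowered by 3, and edgeR at 1 µg 45 of 50 raised by 0.5. Columns of 8 other libraries were not used, and bulk PrE libraries were not analysed here.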

Additional observations from a re-analysis of the deposited data

Results flagged for a closer look

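In 2 of 51 groups of 4 to 10 values of the members, 1 value stood apart from the others by Dixon's criterion, which chance meets in about 1 of 20 groups. Both were libraries of C1-RamDA-seq at 10 pg (n = 4). The light chain signal of *Ftl1* with its copies was 2847.2 CPM in library 4 and 2379, 2386 and 2406 CPM in the others. *Slc40a1* was 3.5791 CPM in the same library and 0.598, 0 and 0 CPM in the others. No comparison above uses these 4 libraries.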

How the results depend on the processing

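Directions and calls of *Tfrc*, *Trf*, *Slc11a2* and *Aco1* between PrE and ES cells of the plates were the same under every alternative run, with log2 differences of −2.68 to −2.34, −2.34 to −1.50, 0.82 to 1.01 and 1.34 to 1.5. Leaving out a plate left 4 to 5 members and 8415 to 9122 genes called, the calls of *Fth1* and *Ftl1* being those that were lost. With the plate as a block, 10160 genes and 7 members were called, *Ireb2* being the added one, and it changed no other call of a member. *Tfrc*, *Trf* and *Aco1* differed by at least 2-fold between 0 h and 72 h and on the C1 system under each alternative run, and no other member did. Between RamDA-seq and SMART-Seq v4, 993 genes were called with no filter and 4106 by DESeq2, in place of 1766. Without RamDA-seq 1, 2 or 3 there were 564, 600 and 580, and over all libraries left out 564 to 1972 genes and 2 to 4 members were called. No scaling beyond library size left 2 members called there and 5 between rdRNA-seq and paRNA-seq. Differences near 0 changed sign: *Trf* to 0.13, 0.19 and 0.27 without RamDA-seq 1, SMART-Seq v4 3 or 4, *Aco1* to 0.037 and 0.26 without RamDA-seq 1 or SMART-Seq v4 4, and, at 1 µg, *Ireb2* to −0.31 with no scaling, −0.083 with no filter, −0.023 by DESeq2 and −0.016, −0.0029 and −0.030 without rdRNA-seq 1, paRNA-seq 2 or 3, and *Tfrc* to 0.0012 without rdRNA-seq 3. Over the libraries left out, the values were −0.85 to 0.27 for *Trf* and −0.59 to 0.26 for *Aco1* at 10 pg, and −0.044 to 0.0012 for *Tfrc* and −0.030 to 0.021 for *Ireb2* at 1 µg. The difference of *Slc40a1* between 72 h and 0 h, −0.17 by means, was 0.11 by medians over cells. The causes were not tested. Replicate numbers of rdRNA-seq and paRNA-seq did not pair the libraries (same-number correlations of deviations of −0.0245 to 0.0233), and with the number as a block 7008 genes and 3 members were called, in place of 7157 and 3, not every library correlating best with its own number. Adding annotated copies by symbol gave no value, since 0 symbols start with those of *Fth1* or *Ftl1*. The larger SD in G1 cells than in lysate wells held for 6 members with a pseudocount of 0.1 and for 5 without cells of few transcripts. The 6 to 8 libraries or plate means per test, 9 lysate wells and time points without labelled replicate cultures limit all of the above.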
